A study of Drosophila melanogaster with 4 samples.

Results

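The nuclear genes for subunits of the respiratory chain and of ATP synthase were examined in poly(A) RNA from Drosophila melanogaster midguts. The members were all nuclear genes whose current FlyBase symbol starts with ND-, UQCR-, COX followed by a digit, or ATPsyn, and whose mean over the 4 libraries was at least 1 normalized count. Of 80 such symbols 76 were matched to a gene ID of the deposited table, and 54 of these reached the minimum, out of 8568 genes that did so among 13585 distinct IDs. The members comprised 31 of 40 complex I symbols, 5 of 9 complex III symbols, 7 of 16 complex IV symbols and 11 of 15 ATP synthase symbols. The symbols COX7CL, COX8, ND-30 and UQCR-6.4L were not matched and were not analysed here. A normalized count is the number of reads of a gene divided by a factor for the library, so that libraries of different depth can be set side by side.

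The study compared midguts of flies that had received uracil, a nucleobase, with midguts of flies that had received no treatment. There were 4 groups of 1 library each: uracil at 16 h, untreated at 16 h, uracil at 2 h and untreated at 2 h. For the flies no strain, sex or age is given in the labels, nor the number of guts pooled in a library or a batch. No pair of libraries therefore has a replicate to check it against, and values are called higher or lower without a test unless a test is named.

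Complex I takes electrons from NADH and passes them to ubiquinone, complex III passes them from ubiquinol to cytochrome c, and complex IV passes them from cytochrome c to oxygen. All of these complexes pump protons across the inner mitochondrial membrane, and ATP synthase lets the protons flow back while it makes ATP. Part of each complex is encoded in mitochondrial DNA and the rest in the nucleus, so that assembly needs products of both genomes. In the midgut the chain supplies ATP to absorptive enterocytes and to the visceral muscle around the epithelium.

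Reads in genes came to 8841796 in uracil 16 h, 16588143 in untreated 16 h, 8990316 in uracil 2 h and 8500378 in untreated 2 h. At these depths the 52 members with a mean of at least 10 normalized counts had between 273 and 27362 reads in every library, and the 95% counting interval of a member's ratio between a pair of libraries had a median half-width of 0.10 to 0.11 on the log2 scale. Such intervals cover counting error only, since copies made by PCR count as separate reads and each group has 1 library. As a check of the labelled tissue, 12 of 12 enterocyte markers were above the minimum, with summed levels between 24959 and 42096 normalized counts. Of the 54 members 27 share some exon base with another annotated gene. ND-MNLL lies wholly inside CG45089 on the same strand, so its reads cannot be assigned to it alone.

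Levels between genes were compared as mean normalized counts per kilobase of annotated exon. Members of complex IV had a median level of 321 per kilobase, those of ATP synthase 288, those of complex III 155 and those of complex I 123. ATPsynbeta, the catalytic subunit in the head of the enzyme, had the highest level of all members at 677 per kilobase. COX5A, which binds the matrix side of cytochrome c oxidase, followed at 575 per kilobase. In complex III the highest level was that of the core protein gene UQCR-C1 at 424 per kilobase, and in complex I that of ND-MLRQ at 359. At the low end stood ND-51L1 at 1.67 and UQCR-11L at 9.18 per kilobase, whose symbols mark them as paralogs of ND-51 and UQCR-11.

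Together the 54 members took 1.07% of all reads in uracil 16 h (95% exact binomial interval 1.06 to 1.07), 1.19% in untreated 16 h (1.188 to 1.199), 1.27% in uracil 2 h (1.27 to 1.28) and 1.14% in untreated 2 h (1.13 to 1.14). The share was therefore lower with uracil at 16 h and higher with uracil at 2 h. Uracil 2 h held the highest value for 46 of the 54 members, against 24.4% of all 8568 features. Uracil 16 h held the lowest value for 43 members, against 31.9% of all features. In RNA from whole midguts, fewer cells of a type and less RNA per cell cannot be told apart.

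**Figure D1:**
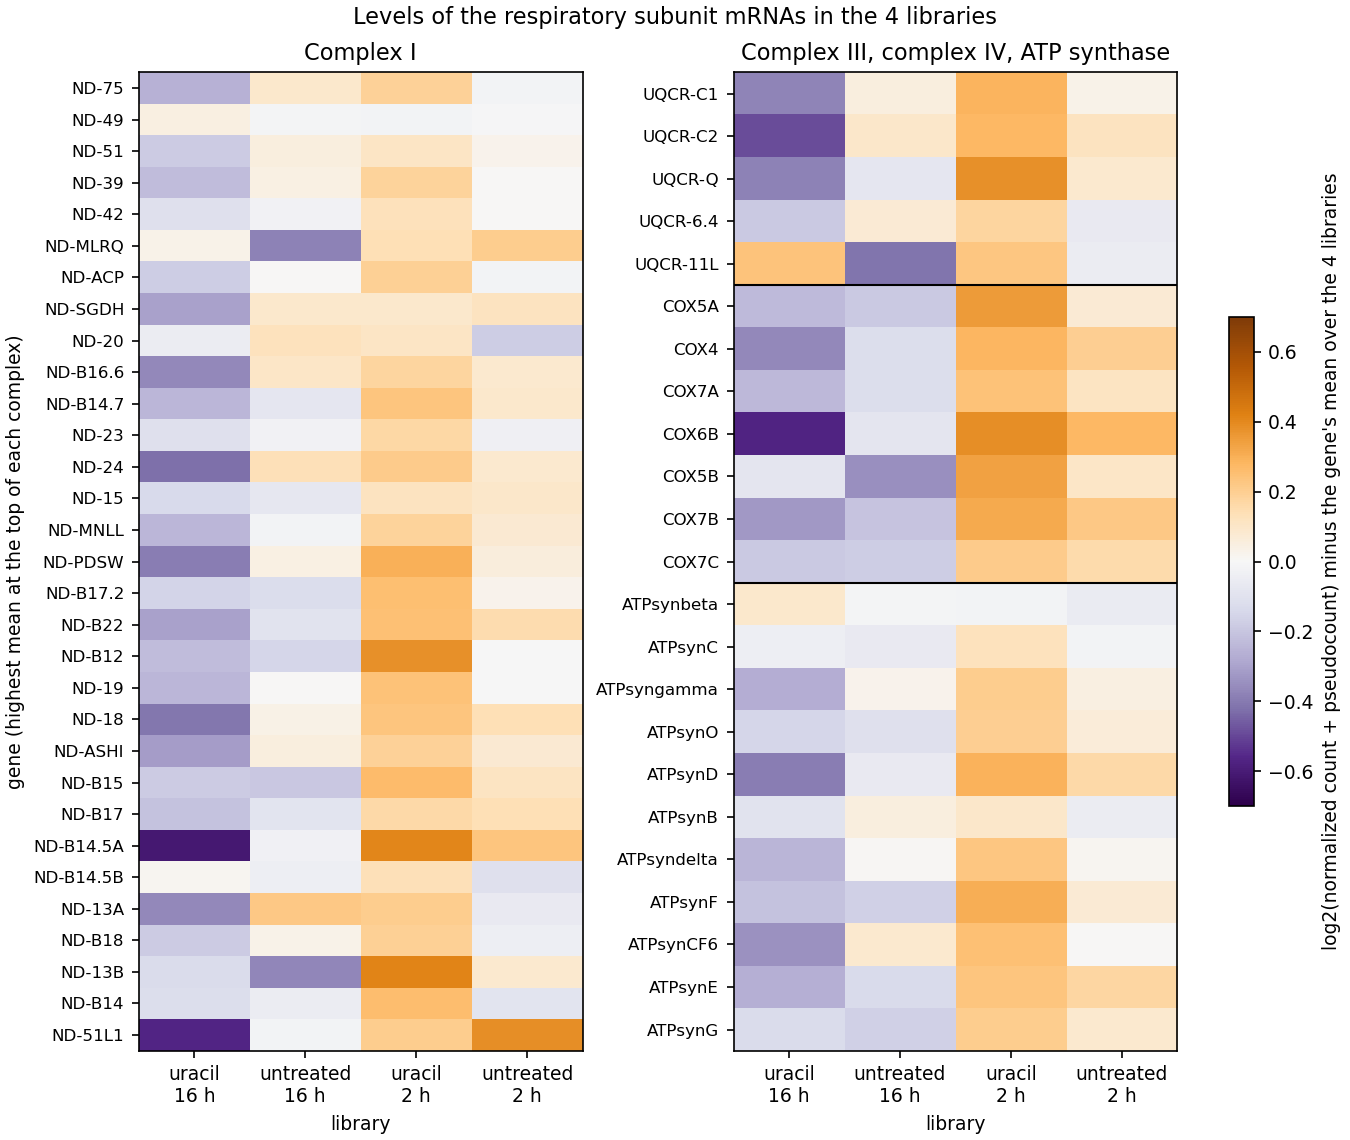
Level of each of the 54 subunit mRNAs in the 4 libraries, as log2(normalized count + 1.02) minus the gene's mean over the libraries (colour scale), with complex I in the left panel, the other complexes in the right panel and black lines between complexes. Uracil 2 h is the highest library for 46 genes and uracil 16 h the lowest for 43, and ATPsynbeta and ND-49 vary little.

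At 16 h the subunit mRNAs stood mostly lower in uracil guts than in untreated guts, by small amounts. Of the 54 members 44 had a log2 ratio below 0, against 51.4% of all features, and the member median was -0.18 (SD over members 0.25, range -0.59 to 0.65) beside a median of -0.02 over all features. A single member, ND-13A, was at least 1.5-fold lower, against 7.87% of all features, and a single member, UQCR-11L, at least 1.5-fold higher, against 16.6%. No member was 2-fold apart in either direction, where 0.992% of all features were 2-fold lower and 7.64% 2-fold higher. The summed level of all members was 10464 normalized counts in uracil guts and 11565 in untreated guts, a ratio of 0.905 (0.898 to 0.912). For features averaging 10 or more normalized counts the median was itself -0.08, and 58.3% were below 0. The 52 members among them had a median of -0.18, which lay 0.10 below it, and 43 were below 0.

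Markers of other cell types also differed between the libraries. All 13 measured visceral muscle markers, of 15 listed, were above 0 at both times, with medians of 1.003 at 16 h and 0.70 at 2 h and summed levels of 4123 normalized counts in uracil 16 h, 2262 in untreated 16 h, 3212 in uracil 2 h and 2187 in untreated 2 h. None of them was at 0 reads. Malpighian tubule markers, 11 measured of 13 listed, were above 0 for 10 at 16 h and for 2 at 2 h, with summed levels of 887 in uracil 16 h, 369.9 in untreated 16 h, 209.95 in uracil 2 h and 357 in untreated 2 h. Female germline markers, 5 measured of 14, summed to 87.6 in uracil 16 h, 37.5 in untreated 16 h, 92.5 in uracil 2 h and 66.7 in untreated 2 h. Photoreceptor and neuron markers, 8 measured of 13, summed to 23.7 in uracil 16 h, 74.5 in untreated 16 h, 18.7 in uracil 2 h and 21.2 in untreated 2 h. Hemocyte markers, 7 measured of 10, summed to 116 in uracil 16 h, 110.2 in untreated 16 h, 85.5 in uracil 2 h and 119 in untreated 2 h. In contrast to the sum, 5 of these 7 were below 0 at 16 h and 2 above, with a median log2 ratio of -0.99. For 2 h the split was 6 below 0 and 1 above, with a median of -0.63. Of 13 male germline markers 5 were measured and 3 had 0 reads. Fat body markers, 5 measured of 9, summed to 858 in uracil 16 h, 1160.1 in untreated 16 h, 1057 in uracil 2 h and 1155 in untreated 2 h. Enterocyte markers summed to 27647 in uracil 16 h, 24959 in untreated 16 h, 38312 in uracil 2 h and 42096 in untreated 2 h. The part of any of these cells in the subunit values was not tested.

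Complex I had a median log2 ratio of -0.21 at 16 h, with 26 of 31 members below 0. ND-75, the largest iron-sulfur subunit of the NADH-oxidising arm and the most abundant member of the complex, had 305 normalized counts in uracil 16 h, 391 in untreated 16 h, 419 in uracil 2 h and 361 in untreated 2 h. It was thus lowest in uracil 16 h and highest in uracil 2 h, with a ratio of uracil to untreated of 0.781 at 16 h (0.747 to 0.817). ND-13A, an accessory subunit of the same arm, had 44.5 normalized counts in uracil 16 h, 67.2 in untreated 16 h, 66.5 in uracil 2 h and 55.2 in untreated 2 h. Its ratio at 16 h, 0.661 (0.589 to 0.742), was the lowest of the members averaging 10 or more. ND-B14.5A, another accessory subunit, had 45.1 normalized counts in uracil 16 h, 67.9 in untreated 16 h, 92.4 in uracil 2 h and 81.8 in untreated 2 h, so that both 16 h libraries were below both 2 h libraries.

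The core subunits of complex I were not all alike. The NADH-oxidising core genes ND-75, ND-51 and ND-24 had log2 ratios at 16 h of -0.35, -0.23 and -0.56. ND-24 stood at 87.2 normalized counts in uracil 16 h and 129 in untreated 16 h, a ratio of 0.676 (0.623 to 0.734). The measured quinone-binding core genes ND-49, ND-23 and ND-20 had log2 ratios of 0.06, -0.09 and -0.17. ND-30 was not matched and so is in neither group. ND-75, ND-24 and ND-20 are X-linked and ND-49 lies on chromosome 4. Whether these ratios go with place in the complex or with chromosome was not tested. ND-49 had 329 normalized counts in uracil 16 h, 316 in untreated 16 h, 315 in uracil 2 h and 317 in untreated 2 h, and every ratio between a pair of these libraries had a counting interval that included 1. ND-20 had 145 normalized counts in uracil 16 h, 164 in untreated 16 h, 162 in uracil 2 h and 133 in untreated 2 h, with untreated 2 h the lowest.

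ND-MLRQ went the other way at 16 h. This subunit was first found in complex I preparations, and its mammalian counterpart is now assigned to complex IV. It had 195 normalized counts in uracil 16 h, 147 in untreated 16 h, 210.3 in uracil 2 h and 220.4 in untreated 2 h. Untreated 16 h was the low library, and the ratio of uracil to untreated at 16 h was 1.33 (1.25 to 1.41), the highest in complex I. The other complex I members above 0 at 16 h were ND-13B, ND-B14.5B, ND-49 and ND-B15, with log2 ratios between 0.01 and 0.24.

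Complex III had a median of -0.30 at 16 h over 5 members, the lowest of the 4 complexes grouped by symbol, and -0.36 over its 4 members averaging 10 or more. Over the pair that shares no exon base with another gene, UQCR-C1 and UQCR-11L, the median was 0.11. UQCR-C1, a core protein of the complex, had 528 normalized counts in uracil 16 h, 708 in untreated 16 h, 834 in uracil 2 h and 699 in untreated 2 h. The second core protein gene, UQCR-C2, had 294 normalized counts in uracil 16 h, 440.5 in untreated 16 h, 499 in uracil 2 h and 447 in untreated 2 h. In both genes uracil 16 h was the lowest and uracil 2 h the highest library, and the ratios at 16 h were 0.745 for UQCR-C1 (0.720 to 0.771) and 0.667 for UQCR-C2 (0.638 to 0.697). UQCR-Q, which lies next to cytochrome b, had 114 normalized counts in uracil 16 h, 141 in untreated 16 h, 194 in uracil 2 h and 158 in untreated 2 h. UQCR-6.4, a small subunit, had 44.9 normalized counts in uracil 16 h, 54.1 in untreated 16 h, 58.0 in uracil 2 h and 49.0 in untreated 2 h. All 4 genes followed the same order at each time, lower with uracil at 16 h and higher with uracil at 2 h.

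Complex IV had a median of -0.12 at 16 h, with 6 of 7 members below 0. COX6B, which links the monomers of the oxidase dimer on the side facing cytochrome c, had 163 normalized counts in uracil 16 h, 228 in untreated 16 h, 317 in uracil 2 h and 294 in untreated 2 h. Its ratio at 16 h was 0.712 (0.670 to 0.756), the lowest of the complex. COX5B, a zinc-binding subunit, had 216 normalized counts in uracil 16 h, 179.7 in untreated 16 h, 289 in uracil 2 h and 246 in untreated 2 h. It was the member of complex IV that was higher with uracil at 16 h, at a ratio of 1.204 (1.14 to 1.27), and it was also higher with uracil at 2 h. COX5A had 384 normalized counts in uracil 16 h, 396 in untreated 16 h, 577 in uracil 2 h and 475 in untreated 2 h. COX7C, a small membrane-spanning subunit, had 104 normalized counts in each of the 16 h libraries, 137 in uracil 2 h and 132 in untreated 2 h. For COX5A and COX7C the counting interval of the 16 h ratio included 1.

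ATP synthase had a median of -0.13 at 16 h, with 8 of 11 members below 0. ATPsynbeta, at chromosome 4 from 1031484 to 1034917 (+ strand, Ensembl release 115, which may not be the build of the reads), had 1719 normalized counts in uracil 16 h, 1598 in untreated 16 h, 1595 in uracil 2 h and 1550 in untreated 2 h. It was the most abundant member and was highest in uracil 16 h, with a ratio at 16 h of 1.075 (1.05 to 1.10). ATPsynC, which forms the rotating ring in the membrane, had 955 normalized counts in uracil 16 h, 939 in untreated 16 h, 1067 in uracil 2 h and 967 in untreated 2 h, and the interval of its 16 h ratio included 1. ATPsynCF6, a coupling factor in the peripheral stalk, had 158 normalized counts in uracil 16 h, 213 in untreated 16 h, 239 in uracil 2 h and 202 in untreated 2 h, with the lowest 16 h ratio of the enzyme, 0.743 (0.699 to 0.791).

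Grouped by their place in the enzyme, the ATP synthase genes were spread unevenly at 16 h. The 4 peripheral stalk genes ATPsynO, ATPsynB, ATPsynD and ATPsynCF6 had a median log2 ratio of -0.24, and all were below 0. The 4 membrane genes ATPsynC, ATPsynE, ATPsynF and ATPsynG had a median of -0.01, with 2 above 0. Among the head and central stalk members, ATPsyngamma (-0.29) and ATPsyndelta (-0.26) were lower and ATPsynbeta was higher (0.10). The ATP synthase genes blw and sun, which have other symbols, are not in these groups or in the sum below. Both were lower, with log2 ratios at 16 h of -0.14 for blw and -0.23 for sun. The 2 most abundant members of the enzyme with an ATPsyn symbol, ATPsynbeta and ATPsynC, were not lower. The summed level of the ATP synthase members was 4410 normalized counts in uracil 16 h and 4532 in untreated 16 h, a ratio of 0.973 (0.962 to 0.985). ATPsynbeta, on chromosome 4, held 1719 and 1598 of these counts, so this ratio leans on a single gene. The ratio of the summed levels was 0.732 (0.714 to 0.750) for complex III, 0.878 (0.866 to 0.890) for complex I and 0.922 (0.904 to 0.941) for complex IV. The differences between complexes were not tested, since members are not replicates of a condition.

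At 2 h the subunit mRNAs stood on the opposite side, slightly higher in uracil guts than in untreated guts. Of the 54 members 50 had a log2 ratio above 0, against 52.2% of all features, and 4 had one below 0, against 47.8%, and the member median was 0.15 (SD over members 0.11, range -0.18 to 0.38) beside 0.01 over all features. None reached 1.5-fold in either direction, a size that 4.83% of all features exceeded upward and 3.69% downward. The summed level of all members was 13538 normalized counts in uracil guts and 12247 in untreated guts, a ratio of 1.11 (1.10 to 1.12). All 5 complex III genes, all 7 complex IV genes and all 11 ATP synthase genes were above 0, with medians of 0.26, 0.11 and 0.14. In complex I 27 of 31 were above 0, with a median of 0.16, and the 4 below 0 were ND-51L1, ND-MLRQ, ND-SGDH and ND-49.

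The highest ratios at 2 h were those of small accessory subunits of complex I. ND-B12, in the membrane arm, had 79 normalized counts in uracil 16 h, 83.1 in untreated 16 h, 120.3 in uracil 2 h and 92.1 in untreated 2 h. Uracil 2 h stood above the other 3 libraries, and the ratio at 2 h was 1.31 (1.19 to 1.44). ND-B14, the least abundant member above a mean of 10, had 33.9 normalized counts in uracil 16 h, 35.5 in untreated 16 h, 44.3 in uracil 2 h and 34.6 in untreated 2 h, a ratio at 2 h of 1.28 (1.09 to 1.501). Among genes averaging 10 or more in the other complexes, the highest 2 h ratios were 1.23 for UQCR-Q (1.14 to 1.33), 1.21 for COX5A (1.16 to 1.27) and 1.19 for ATPsynCF6 (1.11 to 1.27). The lowest in those complexes were 1.12 for UQCR-C2 (1.07 to 1.17), 1.04 for COX7C (0.951 to 1.13) and 1.03 for ATPsynbeta (1.004 to 1.05).

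**Figure D2:**
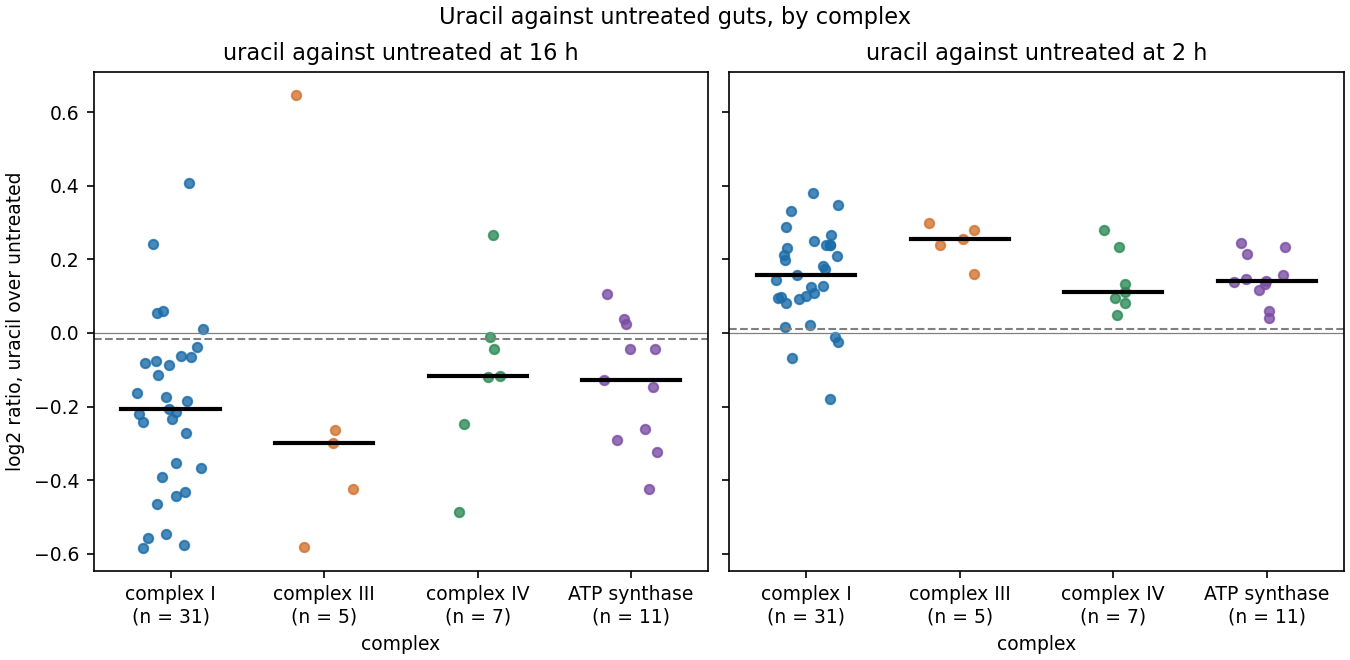
Log2 ratio of uracil over untreated guts for each subunit gene (points), by complex, at 16 h (left) and at 2 h (right); black bars are medians over the members and the dashed line is the median over all 8568 features. The medians of the 4 complexes lie between -0.30 and -0.12 at 16 h and between 0.11 and 0.26 at 2 h.

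Of the 54 members 42 were below 0 at 16 h and above 0 at 2 h, a combination shown by 28.0% of all features. Another 8 members were above 0 at both times, 2 below 0 at both, and 2 above 0 at 16 h and below 0 at 2 h, namely ND-MLRQ and ND-49. The log2 ratio at 16 h minus that at 2 h was below 0 for 49 members, against 53.3% of all features, with a median of -0.33 beside -0.04 over all features. It ran from -0.85 for ND-13A to 0.48 for ND-MLRQ. Among features averaging 10 or more normalized counts it was below 0 for 58.1%, with a median of -0.09. The 52 members among them had 48 below 0 and a median of -0.33. A gene's ratio at 2 h told little of its ratio at 16 h: over the 52 members with a mean of at least 10, Pearson's r was -0.09 and Spearman's rho -0.08. These points come from the same 4 libraries and are a description only.

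Between 2 h and 16 h the uracil guts differed more than the untreated guts. In uracil guts 51 of 54 members were lower at 16 h than at 2 h, against 50.9% of all features, with a member median of -0.46 (SD over members 0.23, range -1.02 to 0.11) beside -0.01 over all features. Of these, 14 were at least 1.5-fold lower, against 9.96% of all features, and ND-B14.5A was 2-fold lower, against 2.91%. With libraries scaled by their total, 5 members were at least 1.5-fold lower, against 6.92% of all features, and 0 were 2-fold lower, against 2.23%. No member was 1.5-fold higher, against 16.3% of all features, and none 2-fold higher, against 9.33%. With the deposited scaling, 56.0% of the features averaging 10 or more normalized counts were lower at 16 h, with a median of -0.06. The 52 members among them had 50 lower and a median of -0.46. This comparison shares the uracil 16 h and uracil 2 h libraries with the comparisons above.

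With the deposited scaling, the 14 genes came from every complex: 6 of 31 in complex I, 3 of 5 in complex III, 3 of 7 in complex IV and 2 of 11 in ATP synthase. ND-B14.5A had a ratio of 16 h to 2 h of 0.489 in uracil guts (0.432 to 0.551), and COX6B a ratio of 0.513 (0.481 to 0.547). UQCR-C1, UQCR-C2 and UQCR-Q had ratios of 0.633, 0.589 and 0.587. In ATP synthase the lowest ratio was that of the peripheral stalk gene ATPsynD, 0.622 (0.586 to 0.660), at 204 normalized counts in uracil 16 h, 255 in untreated 16 h, 328 in uracil 2 h and 299 in untreated 2 h. The summed level of complex III in uracil guts was 985 normalized counts at 16 h and 1589.9 at 2 h, a ratio of 0.620 (0.603 to 0.636), and that of ATP synthase had a ratio of 0.873 (0.861 to 0.885).

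In untreated guts 36 of 54 members were lower at 16 h than at 2 h, against 46.5% of all features, with a member median of -0.07 (SD over members 0.19, range -0.58 to 0.30) beside 0.04 over all features. None reached 1.5-fold, a size reached downward by 8.71% of all features and upward by 11.2%, and none reached 2-fold, against 2.84% downward and 2.78% upward. With libraries scaled by their total in place of the deposited scaling, the split became 23 of 54 lower and the median 0.08, while the median over all features moved by 0.14 to 0.18. The members' median lay 0.11 below that of all features with the deposited scaling and 0.10 below it with the total.

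All 7 complex IV genes were lower in untreated 16 h than in untreated 2 h, with a median log2 ratio of -0.34 and a range of -0.45 to -0.23, and the summed level of the complex had a ratio of 0.797 (0.782 to 0.812). The medians of the other complexes were -0.02 for complex I, -0.02 for complex III and -0.04 for ATP synthase. COX5B had the lowest ratio, 0.731 (0.691 to 0.774). COX7A, another small membrane-spanning subunit, had the highest, 0.852 (0.809 to 0.897), at 221 normalized counts in uracil 16 h, 239.7 in untreated 16 h, 309 in uracil 2 h and 281 in untreated 2 h. The lowest ratios of the other complexes among genes averaging 10 or more were 0.665 for ND-MLRQ (0.625 to 0.708), 0.892 for UQCR-Q (0.833 to 0.956) and 0.807 for the membrane gene ATPsynE (0.757 to 0.861). ATPsynE had 141 normalized counts in uracil 16 h, 154 in untreated 16 h, 199 in uracil 2 h and 191 in untreated 2 h. On the higher side stood ND-20 with 1.23 (1.15 to 1.33), UQCR-6.4 with 1.10 (0.980 to 1.25) and the peripheral stalk gene ATPsynB with 1.07 (1.02 to 1.13). ATPsynB had 248 normalized counts in uracil 16 h, 274 in untreated 16 h, 283 in uracil 2 h and 256 in untreated 2 h.

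**Figure D3:**
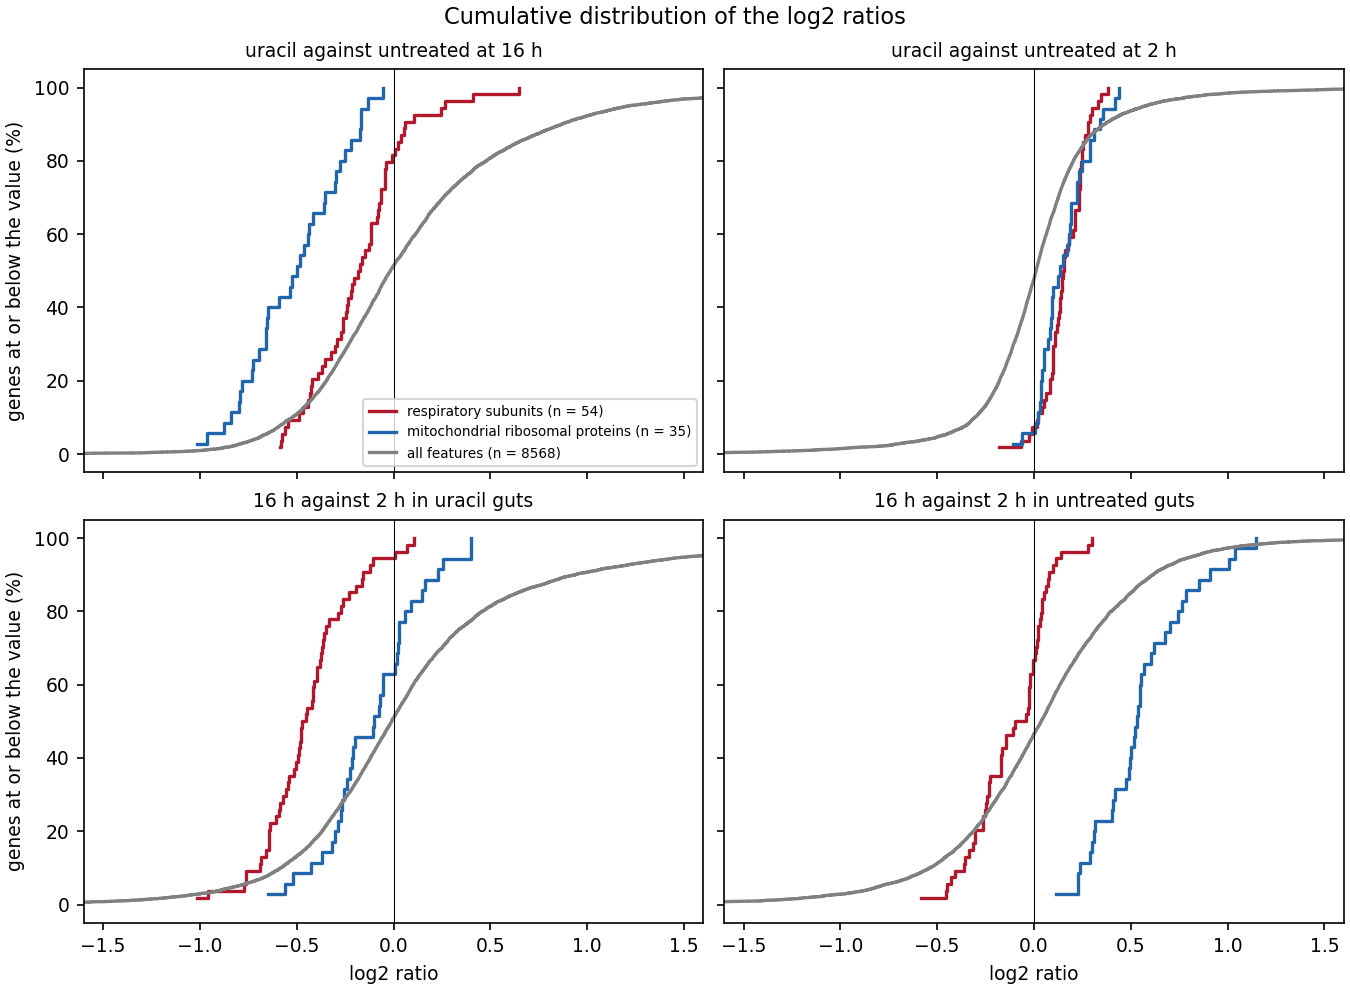
Share of genes (vertical axis, %) at or below each log2 ratio (horizontal axis) in the 4 comparisons, for the 54 respiratory subunits, the 35 measured mitochondrial ribosomal protein genes and all 8568 features. The subunit curve lies left of all features in uracil guts at 16 h against 2 h (median -0.46 beside -0.01), while in untreated guts the ribosomal protein curve lies right of the subunit curve (medians 0.53 and -0.07).

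An effect shared across conditions was tested with limma on the 8560 genes that averaged 1 CPM or more, a read count scaled to the library's total, in an additive model of treatment and time with Benjamini-Hochberg adjustment. Its single residual degree of freedom is the difference of the uracil effect between the times, so the test does not measure spread between replicates. For uracil, 0 of the 54 members passed, against 0.035% of all genes, and 0 had an unadjusted p under 0.05, against 4.58%. The count of members passing was also 0 with edgeR and with DESeq2. In limma 25 of 54 estimates were above 0, with a median of -0.01. Ratios of opposite sign at the 2 times cancel in this estimate and enlarge the residual, and 42 members were below 0 at 16 h and above 0 at 2 h. For these members the test cannot decide whether uracil changed them at either time. For time, 0 of the 54 members passed in limma, against 0.421% of all genes, and 0 passed in edgeR or DESeq2. At an unadjusted p under 0.05 there were 4 members in limma (7.41% of members, against 16.0% of all genes). There were 3 in edgeR, against 15.7% of all genes, and 4 in DESeq2, against 11.5%. In limma the count was 1 with libraries scaled by their total, against 18.5% of all genes. With no filter on low values it was 7, against 15.9%.

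The 4 members were COX6B, COX7B, ND-B14.5A and COX4, all lower at 16 h in both treatments. COX6B had a log2 difference of -0.66 between 16 h and 2 h (SE 0.221, limma adjusted p = 0.231). COX7B had -0.53 (SE 0.192, limma adjusted p = 0.258), ND-B14.5A -0.64 (SE 0.253, limma adjusted p = 0.291) and COX4 -0.48 (SE 0.190, limma adjusted p = 0.295). The time estimate was below 0 for 51 of 54 members, with a median of -0.27. With libraries scaled by their total it was below 0 for 44, with a median of -0.14. The share of all genes with a time estimate below 0 is not given here. For 16 h against 2 h, 46.5% of all features were below 0 in untreated guts and 50.9% in uracil guts. Scaling by total made these shares 32.8% and 41.0%. How much of the change from 51 to 44 is common to all features was not tested.

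The members just above the minimum were paralogs with few reads. ND-51L1 had 2.00 normalized counts in uracil 16 h, 3.39 in untreated 16 h, 4.14 in uracil 2 h and 4.82 in untreated 2 h, from 18 to 58 reads. Its partner ND-51, the flavin-binding subunit, had 274 normalized counts in uracil 16 h, 322 in untreated 16 h, 334 in uracil 2 h and 315 in untreated 2 h. UQCR-11L had 4.88 normalized counts in uracil 16 h, 2.75 in untreated 16 h, 4.84 in uracil 2 h and 3.80 in untreated 2 h, and its ratio at 16 h of 1.78 had an interval from 1.15 to 2.74. Its partner UQCR-11 is listed at 0 in every library. The next member by level was ND-B14, with a mean of 37.1.

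Of the 22 matched genes below the minimum, 17 carry a paralog symbol ending in L, L1 or L2, and 10 of the 22 have 0 reads in every library. None had more than 12 reads in 1 library. The highest were COX5BL with a mean of 0.688, COX7AL2 with 0.356 and ND-MWFE, a membrane-arm subunit of complex I, with 0.341. COX5BL had 0.555 normalized counts in uracil 16 h, 0.701 in untreated 16 h, 0.354 in uracil 2 h and 1.14 in untreated 2 h. COX7AL2 had 0.776 normalized counts in uracil 16 h, 0.292 in untreated 16 h, 0.354 in uracil 2 h and 0 in untreated 2 h. ND-MWFE had 0.444 normalized counts in uracil 16 h, 0.175 in untreated 16 h, 0.236 in uracil 2 h and 0.507 in untreated 2 h. These values rest on 0 to 12 reads each and give no fold. The other genes without a paralog symbol below the minimum were ND-AGGG, UQCR-11, UQCR-14 and ND-B8. All exons of UQCR-14 overlap CG32576 on the other strand, and all exons of COX5BL overlap Trmt6 on the other strand. Of the exon bases of ND-B8 15.4% overlap Gs1l. For ND-MWFE 35.0% of the exon bases overlap Nrk or TppII, and 15.2% overlap Nrk on the same strand. ND-AGGG and UQCR-11 share no exon base with another annotated gene. Whether counting across overlaps set the low values of the overlapped genes was not tested.

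The members lie on every large chromosome arm, and their 16 h ratios differed by arm. The 11 X-linked members were all below 0 at 16 h, with a median of -0.37 (range -0.58 to -0.17), beside a median of -0.10 over all 1345 X-linked features, of which 41.8% were above 0. Medians of the members on 2L, 2R, 3L and 3R were -0.12, -0.07, -0.18 and -0.12. The 2 members on chromosome 4, ND-49 and ATPsynbeta, were both above 0. Chromosome 4 as a whole stood higher with uracil at 16 h: 61 of its 67 features were above 0, with a median of 0.55, so these 2 members lay below the median of their own chromosome. At 2 h 18 of the 67 features were above 0, with a median of -0.10. For members on chromosomes 2 and 3 alone the 16 h median was -0.12, the 2 h median 0.16 and the median of 16 h against 2 h in uracil guts -0.45, over 41 genes.

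**Figure D4:**
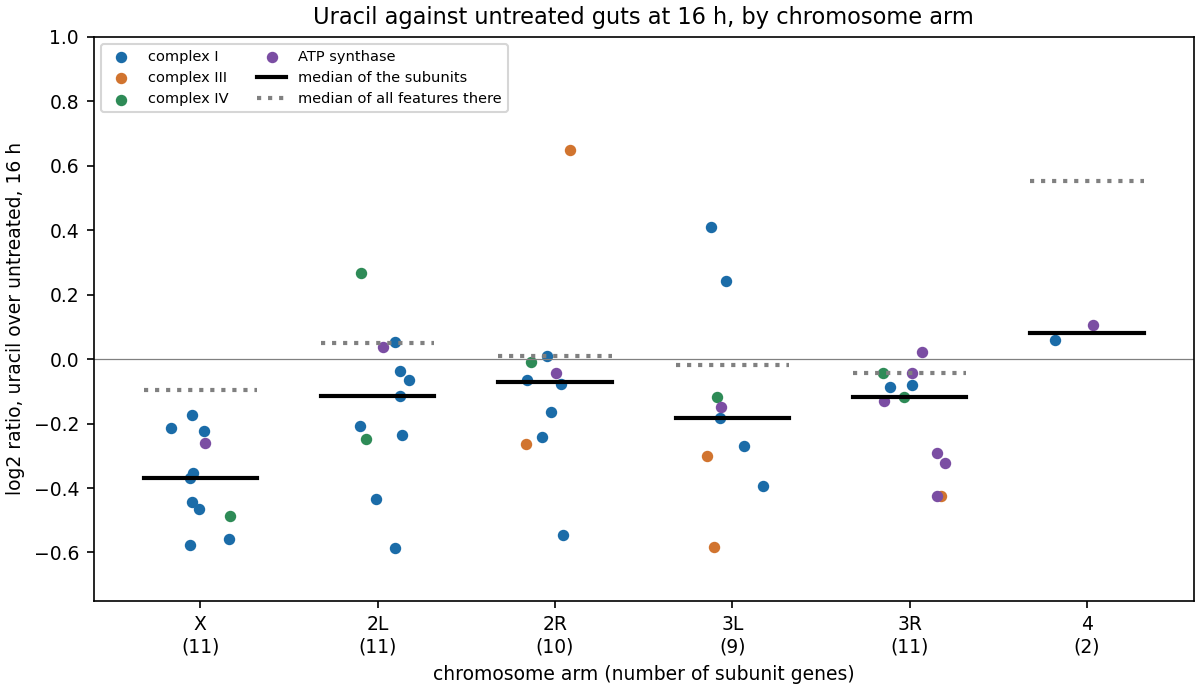
Log2 ratio of uracil over untreated guts at 16 h for each subunit gene (points, coloured by complex) by chromosome arm, with the median of the subunits (black bars) and of all features on the arm (dotted grey bars). All 11 X-linked subunit genes lie below 0, and the 2 genes on chromosome 4 lie above 0 but below the chromosome's median of 0.55.

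Across the 52 members with a mean of at least 10, genes with more exon bases in total had lower 16 h ratios of uracil to untreated (Pearson's r -0.24 with log2 exon bases, Spearman's rho -0.29). They had higher ratios of 16 h to 2 h in untreated guts (r 0.48, rho 0.42). The values were -0.14 and -0.20 for uracil against untreated at 2 h, and 0.22 and 0.15 for 16 h against 2 h in uracil guts. Over 6252 features the same correlations were -0.05 and -0.02 at 16 h, and 0.11 and 0.08 in untreated guts. For 2 h they were -0.02 and -0.10, and in uracil guts 0.04 and 0.09. The points share 4 libraries and genes are not independent replicates, so these values describe the libraries.

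Subunits with other symbols and genes of neighbouring pathways were set beside the members. Of 7 measured subunits with other symbols, 6 were below 0 at 16 h and 6 above 0 at 2 h, with medians of -0.27 and 0.17. The most abundant was blw, the alpha subunit in the head of ATP synthase, with 1206.3 normalized counts in uracil 16 h, 1333 in untreated 16 h, 1384 in uracil 2 h and 1206.1 in untreated 2 h. Its ratio at 16 h, 0.905 (0.885 to 0.926), was below 1, whereas that of ATPsynbeta, with which it forms the head, was above 1. All 4 measured genes of complex II, which feeds electrons from succinate into the chain, were below 0 at 16 h and above 0 at 2 h, with medians of -0.47 and 0.14. SdhA, the flavoprotein, had 355 normalized counts in uracil 16 h, 503 in untreated 16 h, 425 in uracil 2 h and 401 in untreated 2 h.

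Several lists of genes that support the chain had lower medians at 16 h than the members had, and higher medians for 16 h against 2 h in untreated guts. The 35 measured mitochondrial ribosomal protein genes were all below 0 at 16 h, with a median of -0.50, while 33 were above 0 at 2 h, with a median of 0.13. They were all above 0 for 16 h against 2 h in untreated guts, with a median of 0.53. Among 11 respiratory assembly factors 9 were below 0 at 16 h (median -0.50), while 6 were above and 5 below 0 at 2 h (median 0.10). Their median in untreated guts was 0.65. Cchl, which attaches heme to cytochromes c, was 2-fold lower at 16 h, at 59.3 normalized counts in uracil guts and 139 in untreated guts. The 9 genes of mitochondrial DNA expression had medians of -0.35 at 16 h, -0.01 at 2 h (3 above and 6 below 0) and 0.48 in untreated guts. PolrMT, the mitochondrial RNA polymerase, stood at 74.0 normalized counts in uracil 16 h and 168 in untreated 16 h. Of 14 tricarboxylic acid cycle genes 13 were below 0 at 16 h (median -0.46), 13 were above 0 at 2 h (median 0.08), and all 14 were above 0 in untreated guts (median 0.28). Genes for synthesis of the carrier ubiquinone were below 0 at 16 h for 7 of 7, with a median of -0.41.

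Regulators and other housekeeping lists differed among themselves. Of 8 nuclear regulators of mitochondrial genes 6 were below 0 at 16 h (median -0.43) and 7 below 0 at 2 h (median -0.13). Myc, a growth regulator, stood at 169.8 normalized counts in uracil 16 h and 364 in untreated 16 h. The 10 mitochondrial stress genes were all below 0 at 16 h (median -0.51), with the chaperone gene Hsp22 at 4.99 normalized counts in uracil 16 h and 22.02 in untreated 16 h. The 11 mitochondrial carriers had medians of -0.14 at 16 h and 0.07 at 2 h. The 11 glycolysis genes had medians of 0.03 at 16 h and 0.01 at 2 h. Of 20 cytosolic ribosomal protein genes 10 were below 0 at 16 h, with a median of 0.00 and a range of -0.23 to 0.43, and 17 were above 0 at 2 h, with a median of 0.09. The 10 subunits of the vacuolar proton pump, a rotary enzyme related to ATP synthase, had medians of -0.14 at 16 h and 0.01 at 2 h, and of -0.31 for 16 h against 2 h in untreated guts. No list was tested against another.

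**Figure D5:**
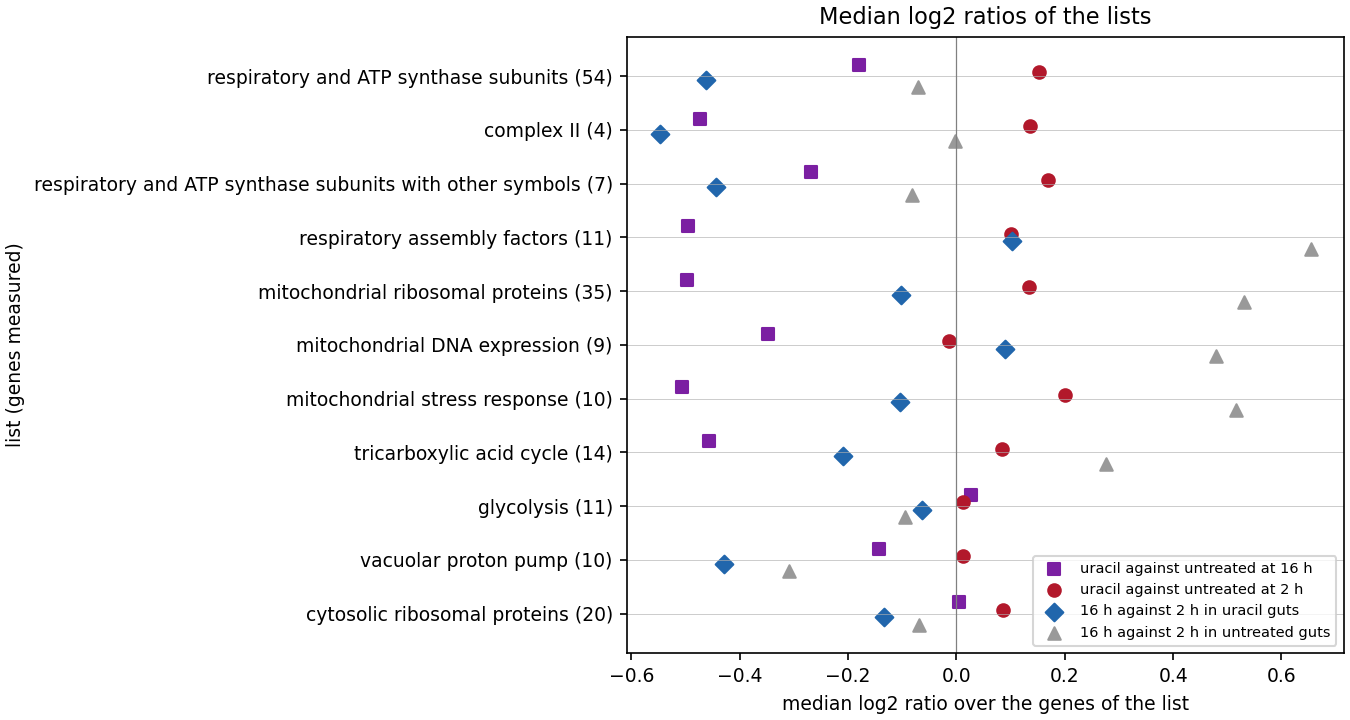
Median log2 ratio of the 54 subunit genes and of 10 other lists in the 4 comparisons (marker shape and colour), with the number of measured genes in parentheses. The subunits, at -0.18 for uracil against untreated at 16 h and -0.07 for 16 h against 2 h in untreated guts, lie between the mitochondrial ribosomal proteins (-0.50 and 0.53) and the vacuolar proton pump (-0.14 and -0.31).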

How the data were processed

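Poly(A) RNA of 4 midgut libraries was purified with a Qiagen kit and sequenced as Illumina TruSeq libraries, per the labels' protocols. Per the submitters' processing notes, the tools included TopHat2 2.0.5, Bowtie, cutadapt 1.0, edgeR and HTSeq. How these were set, which build and annotation they used, and whether counting used strand, is not given in the sources used here. Deposited by the authors was 1 signal per gene and library, a normalized count. All values (100%) were whole multiples of 1 step per library within 0.01 reads, so reads in genes were recovered by division. The test plan had assumed that these might be counts, and because they are not, limma on log values is the main test.

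Lines sharing an ID were summed, and symbols came from a FlyBase name table for 12888 of 13585 IDs. Log2 ratios use values plus 1.02, worth 1 CPM. Ratios of named genes are ratios of normalized counts with 95% intervals (exact, Clopper-Pearson) computed on reads. Counts of 1.5-fold and 2-fold use the log2 ratios. limma 3.58.1, edgeR 4.0.16 and DESeq2 1.42.0 ran in R 4.3.3 at a threshold of 0.05 and were tested on simulated data. The limma prior had 5.33 degrees of freedom.

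The members and the 21 gene lists were chosen with earlier results of these data known. By rule, 27 genes are named with the value in every library: per complex the member of highest mean and the highest and lowest ratio of each comparison, the paralogs, and the genes beside the minimum. ND-24, ND-51, ATPsynC, blw, the groups by place in the enzyme and those by chromosome were chosen after their values were seen, as were the list genes without a 2-fold difference. Alternative pseudocounts, scalings, filters and tools were tried.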

Additional observations from a re-analysis of the deposited data

Results flagged for a closer look

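The uracil comparison of the subunit mRNAs had opposite signs at the 2 times, below 0 at 16 h and above 0 at 2 h in the median of all members and of each complex. The median log2 ratio at 16 h minus that at 2 h was -0.33 over the 54 members, -0.37 for complex I, -0.60 for complex III, -0.25 for complex IV and -0.28 for ATP synthase. The medians of 35 mitochondrial ribosomal protein genes and 14 tricarboxylic acid cycle genes had the same signs. Their medians of this difference were -0.62 and -0.54, against -0.04 for all features. The 9 genes of mitochondrial DNA expression and 8 nuclear regulators of mitochondrial genes had medians below 0 at both times. At 2 h these were -0.01 and -0.13. With 1 library per group the difference between the times was not tested, because a model that holds it leaves no residual degree of freedom.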

How the results depend on the processing

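Of the summaries of the members and of all genes, 122 values under other settings stayed on the same side and within the range used here, 31 moved and 1 reversed. The members at least 1.5-fold lower at 16 h (1 as reported) were 3 with 0.1 times the pseudocount and 3 with libraries scaled by total, and 0 with 5 times the pseudocount, with DESeq2 size factors and among members that share no exon base. Those 1.5-fold higher (1) were 0 with 5 times the pseudocount and 0 at a mean of at least 10. In untreated guts the members 1.5-fold lower at 16 h (0) were 1 with 0.1 times the pseudocount and 1 with DESeq2 size factors. Scaling by total reversed the median for 16 h against 2 h in untreated guts to 0.082, with 23 members below 0, and to 0.13 for complex I, 0.13 for complex III and 0.11 for ATP synthase. In uracil guts it gave a median of -0.35, 5 members 1.5-fold lower at 16 h and 0 2-fold lower, and it moved the median of all features by 0.14 in untreated and 0.11 in uracil guts. The count of 2-fold lower members there (1) was 2 with 0.1 times the pseudocount, and 0 with 5 times it, with DESeq2 size factors, among members with no shared exon base and on chromosomes 2 and 3 only. Both of these last subsets were chosen after seeing the data. The 27 members with no shared exon base had 21 below 0 at 16 h, 25 above 0 at 2 h, and for 16 h against 2 h 17 below 0 in untreated guts and 25 in uracil guts, where 8 were 1.5-fold lower. There the complex III median at 16 h reversed to 0.11, resting on UQCR-C1 and UQCR-11L alone. All genes past the uracil threshold (3 in limma) were 14 scaled by total, 29 with no filter, 5 in edgeR and 35 in DESeq2, and past the time threshold (36) 306, 329, 26 and 294, and 0 in limma with DESeq2 size factors. Members passing were 0 in each, with a lowest adjusted p for time of 0.122 to 0.269 over the alternatives, that of COX6B. The additive fit compares the treatments within each time. A replicate block was not possible because each group has 1 library, and without any 1 library the fit would keep no residual degree of freedom. Depth limits ND-51L1 and UQCR-11L most. The causes of these changes were not tested.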
